A study of Homo sapiens with 12 samples.

Results

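The 10 genes described here are 7 mucins (MUC5B, MUC5AC, MUC1, MUC4, MUC13, MUC16 and MUC20) and 3 genes known from mucus-secreting goblet cells (SPDEF, AGR2 and FCGBP). They were taken by symbol from a table of 62754 genes, and all 10 had a row. The set was selected on MUC5B, chosen for its fall after 7 days of erlotinib and its overshoot after 28 days, so the erlotinib values of MUC5B are given as a description without a test. Of the 10 genes, 8 were among the 17115 genes with enough counts to fit, and MUC5AC and MUC13 were below that limit. FCGBP had only 8 to 9 counts per untreated library and passed the limit through the other groups, so counts over the 8 genes are a description of them and no support for a shared direction.

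The cells were PC9, a human lung adenocarcinoma line that carries a mutant EGFR, taken from a subclonal line. Polyadenylated RNA was sequenced from 3 cultures in each of 4 groups. Cells wild type for TDP1 were taken without drug (called untreated WT), after 7 days in 1 µM erlotinib, an inhibitor of the EGFR kinase (DTC, for drug-tolerant cells), or after 28 days at that dose (DTEC, for drug-tolerant expanded cells). The remaining group was 1 knockout line of TDP1, named KO2, without drug. The cultures were divided from a shared flask and grown apart, so p-values measure the spread between such cultures, and KO2 being 1 line, knockout and line cannot be told apart. All 12 libraries carried the same batch label, and they held 25572691 to 38373679 estimated counts. TDP1 itself is an enzyme that removes trapped topoisomerase 1 from DNA ends. It had a mean of 10.8 CPM (SD 0.647, n = 3) in KO2, or 41.0% of the untreated WT mean of 26.3 CPM (SD 1.60, n = 3). It was also low in DTC, at 15.7, 12.7 and 13.5 CPM, and was at 28.4, 25.4 and 26.1 CPM in DTEC. CPM is used here for library-scaled counts with TMM factors, and 3 counts, taken as the floor, correspond to 0.0824 to 0.115 CPM.

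Mucins are large glycoproteins whose repeat domains are densely decorated with O-linked sugars. MUC5B and MUC5AC are secreted and polymerise into the mucus gel of the airway, MUC5B mostly from submucosal glands and distal airway secretory cells and MUC5AC mostly from surface goblet cells. MUC1, MUC4, MUC13, MUC16 and MUC20 stay anchored in the plasma membrane, where they shield the cell and can bind signalling partners. SPDEF is an ETS-family transcription factor of secretory cells, AGR2 a protein disulfide isomerase of the endoplasmic reticulum needed for mucin folding, and FCGBP a mucus protein with von Willebrand D domains that binds to gel-forming mucins.

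In these cultures the membrane mucins MUC1, MUC16 and MUC20 were 10.5-fold to 12.2-fold above untreated WT after 7 days of erlotinib and 16.7-fold to 18.5-fold above it after 28 days. MUC4 was highest at 7 days and MUC5B and SPDEF were lowest then. AGR2 was little above untreated WT at 7 days and 20.9-fold above it at 28 days. MUC5AC had at most 19 counts in any library. RNA from bulk cultures was measured, so fewer cells carrying a transcript and less transcript per cell cannot be told apart.

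**Figure D1:**
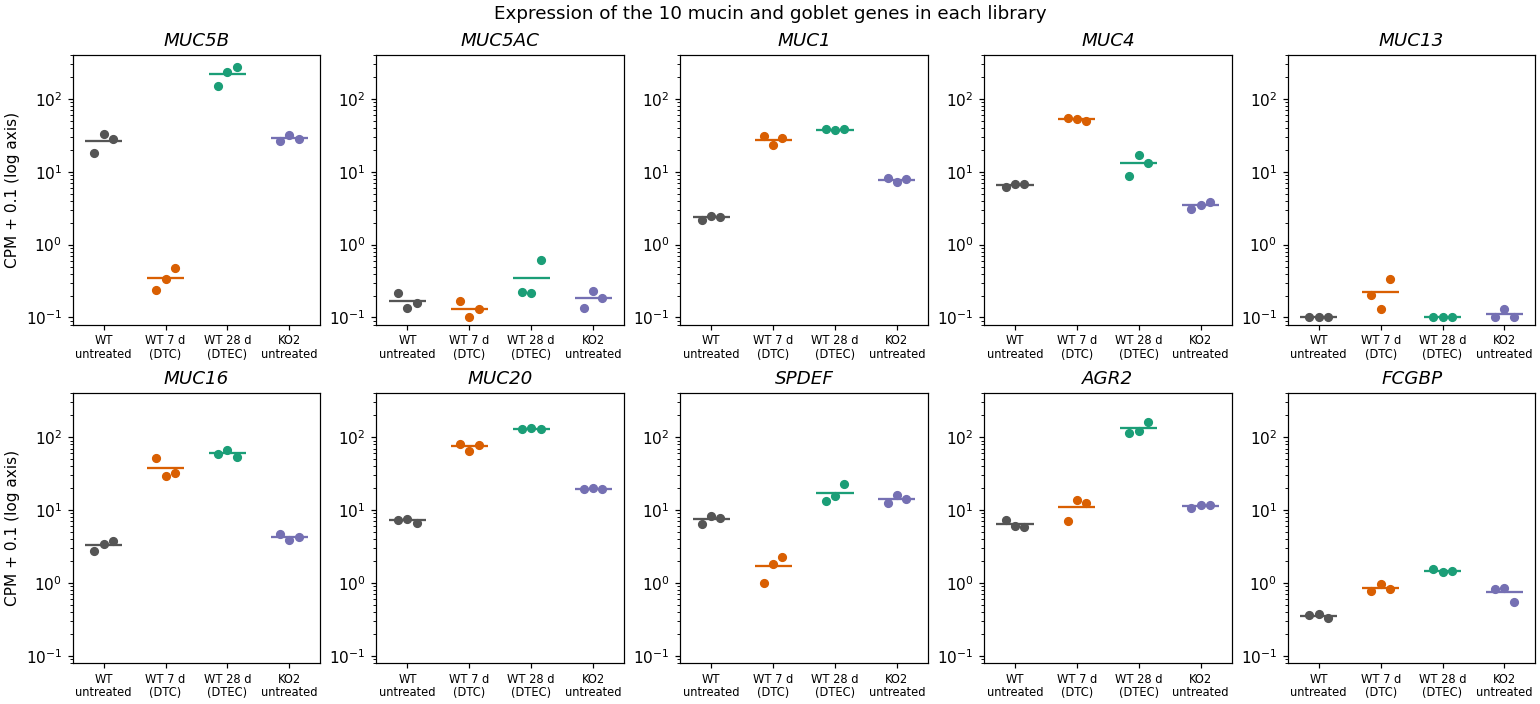
Expression of the 10 genes in each of the 12 libraries, as CPM plus 0.1 on a log axis; each point is a library and each bar the mean of 3 libraries. MUC5B spans 0.135 to 271 CPM, MUC1, MUC16 and MUC20 are high in both erlotinib groups, MUC4 is highest at 7 days, and MUC5AC and MUC13 lie near the bottom of the axis.

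Because these 4 genes followed 4 different courses over the groups, the 250 bases before their RefSeq start sites (GRCh38.p14) are shown: MUC1 (high at 7 and 28 days; chr1:155192916-155193165, minus strand), MUC4 (highest at 7 days; chr3:195811930-195812179, minus strand), SPDEF (low at 7 days, high at 28 days; chr6:34556330-34556579, minus strand) and AGR2 (high mainly at 28 days; chr7:16805000-16805249, minus strand). Each is written 5′ to 3′ on the gene's strand, and capitals mark matches, on either strand, to the motifs searched. The table of RefSeq starts held 7 of the 10 genes and did not hold MUC5B, MUC5AC and MUC20.
MUC1: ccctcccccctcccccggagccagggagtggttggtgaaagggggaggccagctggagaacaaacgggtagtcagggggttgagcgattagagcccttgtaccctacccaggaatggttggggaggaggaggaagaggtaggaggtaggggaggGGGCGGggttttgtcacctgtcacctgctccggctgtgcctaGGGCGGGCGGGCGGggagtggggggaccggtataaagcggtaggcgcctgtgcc
MUC4: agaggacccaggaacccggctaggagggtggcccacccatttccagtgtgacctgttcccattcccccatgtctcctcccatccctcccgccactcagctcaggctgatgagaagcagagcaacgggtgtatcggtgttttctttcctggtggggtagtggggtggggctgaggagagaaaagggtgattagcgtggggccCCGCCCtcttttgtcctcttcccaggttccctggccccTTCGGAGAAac
SPDEF: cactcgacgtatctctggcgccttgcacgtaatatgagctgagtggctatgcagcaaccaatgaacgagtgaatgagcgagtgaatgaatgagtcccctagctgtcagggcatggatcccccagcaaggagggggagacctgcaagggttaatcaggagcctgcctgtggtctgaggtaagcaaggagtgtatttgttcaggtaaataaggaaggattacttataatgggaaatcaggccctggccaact
AGR2: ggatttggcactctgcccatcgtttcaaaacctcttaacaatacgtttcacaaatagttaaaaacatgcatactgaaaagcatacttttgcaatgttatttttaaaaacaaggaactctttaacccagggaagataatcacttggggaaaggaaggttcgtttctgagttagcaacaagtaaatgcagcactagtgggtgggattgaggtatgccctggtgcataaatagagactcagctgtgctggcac
The motifs were those of AP-1 (TGANTCA), FOXA factors (TGTTTAC), STAT factors (TTCNNNGAA), the GC box bound by SP1 (GGGCGG) and ETS factors (CCGGAA). The MUC1 window held 4 GC boxes, at 96, 54, 50 and 46 bases before the start, of which the last 3 overlap. The MUC4 window held 1 GC box at 49 bases and 1 STAT match at 11 bases before the start. None of the 5 motifs was found in the SPDEF and AGR2 windows. Among 35116 windows of the same length, 42.6% held a GC box, 14.5% an ETS match, 6.57% an AP-1 match, 6.57% a STAT match and 2.98% a FOXA match. The GC content was 66.0% for MUC1, 60.4% for MUC4, 50.8% for SPDEF and 40.4% for AGR2.

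MUC5B (ENSG00000117983, GENCODE 29 on GRCh38, chr11:1223066-1262172, plus strand) was measured at 18.2, 32.7 and 27.8 CPM in the 3 untreated WT cultures, from 610, 970 and 963 counts. After 7 days of erlotinib it was at 0.135, 0.235 and 0.381 CPM, from 4, 8 and 13 counts. After 28 days it was at 148, 234 and 271 CPM, from 4849, 6115 and 9867 counts. The 3 groups did not overlap, and the 7-day libraries were above the floor of 3 counts with at most 13 counts each. The fitted level at 7 days was 101-fold below untreated WT, the level at 28 days was 8.29-fold above it, and the 28-day level was 839-fold above the 7-day level. The denominator of the last ratio is 4 to 13 counts per library, so its size is the least certain of these folds. On the log2 scale the differences were -6.66 (SE 0.378), 3.05 (SE 0.245) and 9.71 (SE 0.383).

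MUC5AC (ENSG00000215182, chr11:1157953-1201138, plus strand), the other gel-forming mucin of the airway surface, lies just upstream of MUC5B. It had 4, 1 and 2 counts in untreated WT, 2, 0 and 1 at 7 days, and 4, 3 and 19 at 28 days. The 19 counts came from 1 DTEC library, the one with the highest MUC5B, while the other DTEC libraries overlapped untreated WT. MUC5AC was too low for the filter. In the fits that keep such genes it was called higher at 28 than at 7 days, with a log2 fold change of 2.91 without the filter (edgeR adjusted p = 0.0287) and 3.01 with DESeq2 (adjusted p = 0.0481), and the libraries of those groups did not overlap. Against untreated WT it was not called at either time in those fits (unfiltered edgeR adjusted p = 0.497 at 7 days and 0.18 at 28 days). FCGBP (ENSG00000275395, chr19:39863323-39934626, minus strand) was low throughout, with 9, 8 and 8 counts in untreated WT, 20, 29 and 25 at 7 days and 47, 34 and 49 at 28 days, and the 3 groups did not overlap. Its mean was 0.256 ± 0.0223 CPM in untreated WT, 0.754 ± 0.0907 at 7 days and 1.36 ± 0.0671 at 28 days (SD, n = 3). The log2 fold change from untreated WT was 1.55 (SE 0.336, edgeR adjusted p = 0.000954) at 7 days and 2.39 (SE 0.329, edgeR adjusted p = 3.36e-05) at 28 days. The step from 7 to 28 days was 0.85 (SE 0.295, edgeR adjusted p = 0.025), a call that was lost in most alternatives, as without DTC replicate 1 or 3 or any 1 DTEC library (edgeR adjusted p 0.052 to 0.0785).

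Of the genes around MUC5B on chromosome 11, some shared part of its course over a far smaller range, and others were level or too low to judge. MUC6 and MUC2, gel-forming mucins on the other side of MUC5AC, were near the floor in untreated WT. MUC6 had 0, 2 and 0 counts in untreated WT, 0, 0 and 2 at 7 days, 7, 30 and 35 at 28 days and 0, 0 and 1 in KO2, so all 3 DTEC libraries were above all 9 others. MUC2 had at most 3 counts in every library. The antisense gene MUC5B-AS1 had 0 counts in all 12 libraries, which allows up to 3 counts in each, and the kit marked strand. AP2A2, an adaptor subunit of clathrin-coated vesicles at one edge of the cluster, had 45.0 ± 3.97 CPM in untreated WT, 25.1 ± 1.92 at 7 days and 46.1 ± 0.642 at 28 days. Its log2 fold change was -0.84 at 7 days (edgeR adjusted p = 2.56e-06) and 0.04 at 28 days (edgeR adjusted p = 0.778). From 7 to 28 days AP2A2 rose by 0.88 (edgeR adjusted p = 3.735e-06). TOLLIP, an adaptor of Toll-like receptor signalling at the other edge, had 33.1 ± 3.05, 35.0 ± 5.40 and 31.3 ± 5.16 CPM in these groups and was called in none of the comparisons. BRSK2, beyond TOLLIP, had at most 3 counts in every library.

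**Figure D2:**
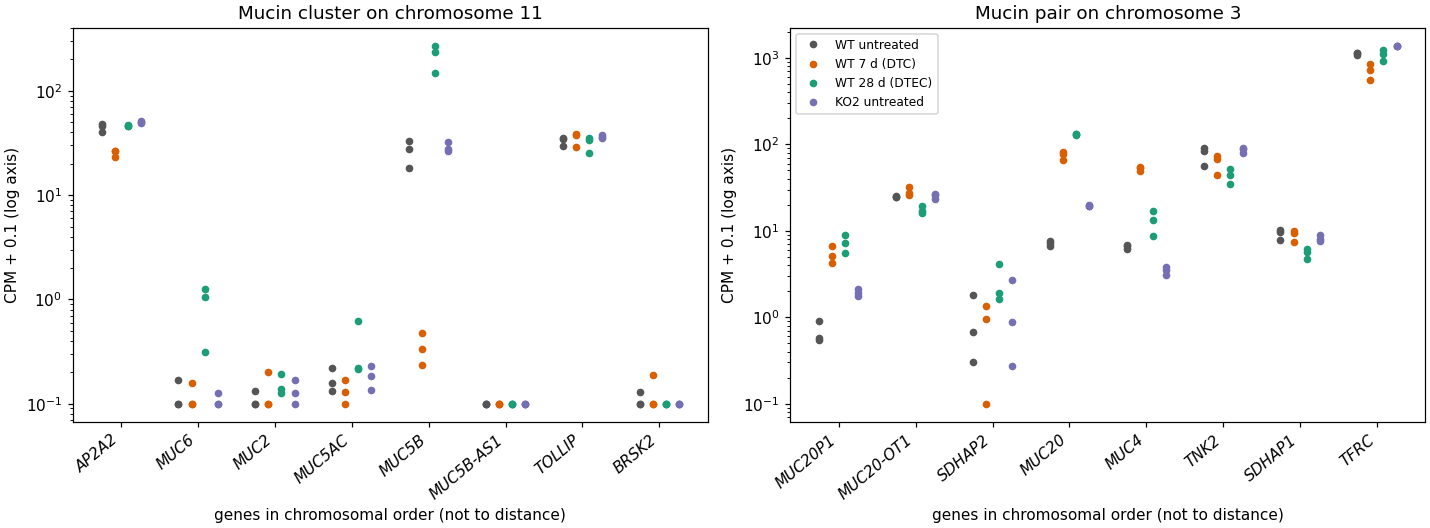
CPM plus 0.1 on a log axis for the genes around MUC5B on chromosome 11 (left) and around MUC20 and MUC4 on chromosome 3 (right), in chromosomal order and not to distance; each point is a library. The 7-day points of MUC5B lie far below those of the other groups, TOLLIP is level in all groups, and MUC20 and MUC4 differ in which erlotinib group is higher.

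The membrane mucins MUC1, MUC4, MUC16 and MUC20 were higher in both erlotinib groups than in untreated WT. MUC1 (ENSG00000185499, chr1:155185824-155192916, minus strand), a mucin of most glandular epithelia, was at 2.09, 2.39 and 2.28 CPM in untreated WT, 30.5, 23.1 and 28.8 at 7 days and 38.1, 37.3 and 37.8 at 28 days. The 3 groups did not overlap. MUC1 rose by a log2 fold change of 3.61 (SE 0.133, edgeR adjusted p = 7.11e-11) at 7 days and 4.06 (SE 0.134, edgeR adjusted p = 1.02e-10) at 28 days. The step from 7 to 28 days was 0.46 (SE 0.111, edgeR adjusted p = 0.00298), and with scaling by total counts alone it was 0.27 and was not called (edgeR adjusted p = 0.0523).

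MUC20 (ENSG00000176945, chr3:195720882-195741123, plus strand), a small mucin known to bind the receptor MET, followed the same order. It was at 7.23, 7.55 and 6.60 CPM in untreated WT, 81.0, 65.5 and 77.0 at 7 days and 130.15, 133 and 131 at 28 days. The log2 fold change was 3.39 (SE 0.108, edgeR adjusted p = 2.35e-11) at 7 days, 4.20 (SE 0.111, edgeR adjusted p = 7.46e-12) at 28 days and 0.82 (SE 0.0953, edgeR adjusted p = 6.69e-06) from 7 to 28 days. None of the 12 deposited MUC20 values was a whole number, while all 12 were whole for each of the other 9 genes, and a near-identical pseudogene, MUC20P1, and the overlapping same-strand transcript MUC20-OT1 lie close by. Its level is therefore uncertain. MUC20P1 was at 0.576 ± 0.201 CPM in untreated WT, 5.20 ± 1.21 at 7 days and 7.15 ± 1.73 at 28 days, and the sum of both genes gave log2 fold changes of 3.42, 4.19 and 0.77 in the 3 comparisons.

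MUC16 (ENSG00000181143, chr19:8848844-8981342, minus strand), the very large mucin whose shed part is the tumour marker CA125, was at 2.69, 3.34 and 3.66 CPM in untreated WT, 51.4, 29.7 and 32.2 at 7 days and 59.0, 67.7 and 52.7 at 28 days. The 7-day library with 51.4 CPM, DTC replicate 1, lay close to the lowest 28-day library. MUC16 rose by 3.54 on the log2 scale (SE 0.210, edgeR adjusted p = 4.71e-09) at 7 days and by 4.21 (SE 0.214, edgeR adjusted p = 5.43e-09) at 28 days. The step between them was 0.66 (SE 0.180, edgeR adjusted p = 0.00634).

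MUC4 (ENSG00000145113, chr3:195746765-195812277, minus strand), a membrane mucin known as a partner of ERBB2, took another course. It was at 6.15, 6.68 and 6.63 CPM in untreated WT, 54.9, 52.6 and 49.0 at 7 days and 8.68, 16.8 and 13.1 at 28 days. The 28-day libraries lay between the other groups without overlap. MUC4 rose by 3.01 on the log2 scale (SE 0.187, edgeR adjusted p = 6.26e-09) at 7 days, was still higher than untreated WT by 0.98 (SE 0.183, edgeR adjusted p = 0.000446) at 28 days, and was 4.07-fold lower at 28 than at 7 days (SE of the log2 change 0.178, edgeR adjusted p = 4.61e-07). MUC13 (ENSG00000173702, chr3:124905442-124953819, minus strand), a membrane mucin best known from the gut, had 0 counts in all untreated WT and all DTEC libraries and 3, 1 and 8 counts in DTC. At 7 days 1 of 3 libraries was thus above the floor. Without the filter MUC13 was called higher at 7 days than in untreated WT (edgeR adjusted p = 0.0334), and with DESeq2 it was not (adjusted p = 0.151).

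MUC20 and MUC4 are neighbours on chromosome 3, and MUC4 fell from 7 to 28 days while MUC20 rose. MUC20-OT1 was at 24.9 ± 0.224 CPM in untreated WT, 28.6 ± 3.13 at 7 days and 17.5 ± 1.66 at 28 days, with log2 fold changes of 0.20 (edgeR adjusted p = 0.111) and -0.51 (edgeR adjusted p = 0.00131). TNK2, a non-receptor tyrosine kinase next to MUC4, was at 77.4 ± 18.5, 61.3 ± 15.4 and 43.7 ± 9.03 CPM and was lower than untreated WT at 28 days (log2 fold change -0.82, edgeR adjusted p = 0.00517). TFRC, the transferrin receptor, had a log2 fold change of -0.66 at 7 days (edgeR adjusted p = 0.000821) and -0.04 at 28 days (edgeR adjusted p = 0.84). The pseudogene SDHAP1, present as a pair of gene IDs, was lower at 28 days under both (log2 fold change -0.75, edgeR adjusted p = 0.00123, and -0.57, edgeR adjusted p = 0.0083), and SDHAP2 was at 0.824 ± 0.782 CPM in untreated WT and 2.46 ± 1.37 at 28 days (edgeR adjusted p = 0.213).

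SPDEF (ENSG00000124664, chr6:34537802-34556333, minus strand) was at 6.36, 8.16 and 7.79 CPM in untreated WT, 0.913, 1.71 and 2.14 at 7 days and 13.4, 15.3 and 22.7 at 28 days, with no overlap between groups. It fell at 7 days (log2 fold change -2.21, SE 0.265, edgeR adjusted p = 4.92e-06) and was higher than untreated WT at 28 days (1.21, SE 0.231, edgeR adjusted p = 0.000607). From 7 to 28 days it rose 10.7-fold (edgeR adjusted p = 1.78e-07). SPDEF was the 1 tested gene of the set, besides MUC5B, with its lowest values at 7 days. Across the 12 libraries Pearson's r between log2 CPM of SPDEF and MUC5B was 0.956, a description over libraries that share their groups.

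AGR2 (ENSG00000106541, chr7:16791811-16833433, minus strand) was at 7.11, 5.97 and 5.80 CPM in untreated WT, 6.93, 13.5 and 12.6 at 7 days and 113, 123 and 160 at 28 days. DTC replicate 1 lay within the untreated WT range, and all 3 DTEC libraries were far above both other groups. The 7-day rise was 0.81 on the log2 scale (SE 0.212, edgeR adjusted p = 0.00403) and was 1.08 without DTC replicate 1 (edgeR adjusted p = 1.11e-05). At 28 days AGR2 was higher by 4.39 (SE 0.226, edgeR adjusted p = 8.26e-09) than untreated WT and by 3.58 (SE 0.215, edgeR adjusted p = 1.93e-08) than DTC.

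**Figure D3:**
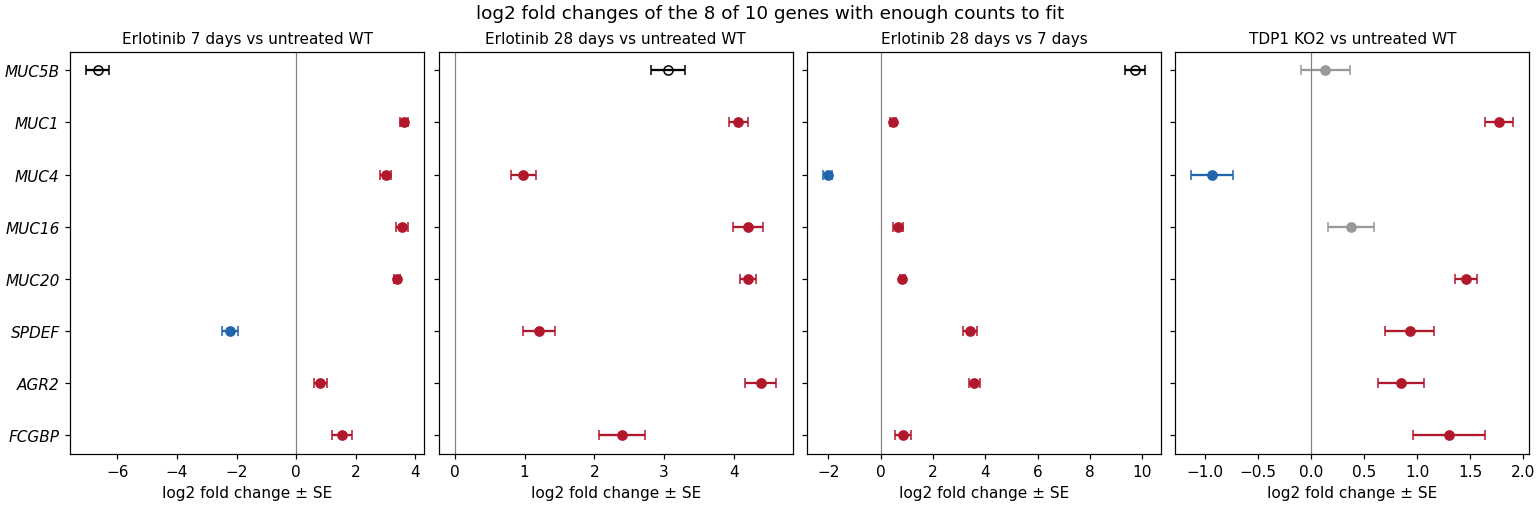
Log2 fold changes with their standard errors for the 8 genes with enough counts, in the 3 erlotinib comparisons and in KO2; each panel has its own axis, red and blue mark genes called higher and lower, grey marks genes not called, and open symbols mark MUC5B where it was not tested. MUC5B spans -6.66 to 9.71 over the erlotinib comparisons and lies near 0 in KO2, and besides it MUC4 and SPDEF lie on opposite sides of 0 in different panels.

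Of the 7 tested genes other than MUC5B, 6 were called higher and 1, SPDEF, lower at 7 days. The set was chosen with earlier results of these data known, and FCGBP passed the limit through groups other than untreated WT. These counts and medians are therefore a description. At that time 34.0% of all tested genes were called higher and 33.3% lower. The median log2 fold change of the 7 genes was 3.01, and that of all tested genes was 0.06. At 28 days all 7 were called higher, against 26.0% of all genes higher and 26.3% lower, with a median of 4.06 against 0.02. From 7 to 28 days 6 were called higher and 1, MUC4, lower, against 28.8% and 26.6% of all genes, with a median of 0.82 against -0.01. These 3 comparisons draw on the same libraries, so their values stand side by side and are not separate evidence. Mitochondrial transcripts made up 4.43% to 5.41% of all counts at 7 days and 1.82% to 2.38% at 28 days, against at most 2.78% in the 6 untreated libraries. The part this plays in the gene values was not tested.

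Levels of different genes were compared as CPM per kilobase of exon. In untreated WT the order was SPDEF (3.89), AGR2 (2.21), MUC20 (1.68), MUC5B (1.41), MUC1 (0.478), MUC4 (0.304), MUC16 (0.0737), FCGBP (0.0198) and MUC5AC (0.00403), with MUC13 at 0. MUC20 and MUC5B were neighbours whose libraries overlapped. At 7 days MUC20 led with 17.5, followed by MUC1 (5.82), AGR2 (3.86), MUC4 (2.45), MUC16 (0.862) and SPDEF (0.829), and MUC5B stood at 0.0135, below FCGBP (0.0582) and MUC13 (0.0348). The libraries of AGR2 and MUC4 overlapped at 7 days, as did those of MUC16 and SPDEF and those of MUC13 with both FCGBP and MUC5B. At 28 days AGR2 led with 46.3, followed by MUC20 (30.9), MUC5B (11.7), SPDEF (8.94), MUC1 (8.001), MUC16 (1.36) and MUC4 (0.603). The MUC5B, SPDEF and MUC1 libraries overlapped there, so their order is not set by these data. In KO2 the order began with SPDEF (7.40), MUC20 (4.62), AGR2 (3.98), MUC1 (1.63) and MUC5B (1.55), the last 2 of which overlapped.

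Without erlotinib, 6 of the 8 tested genes differed between KO2 and untreated WT, 5 higher and 1 lower, where 2.76% of all tested genes were called higher and 1.55% lower. The median log2 fold change of the 8 was 0.89 and that of all tested genes -0.01. This comparison uses the same untreated WT libraries as the erlotinib comparisons. MUC1 was at 8.21, 7.15 and 7.74 CPM in KO2, 3.41-fold above untreated WT (log2 fold change 1.77, SE 0.133, edgeR adjusted p = 4.50e-06). MUC20 was at 19.5, 19.9 and 19.5 CPM, 2.76-fold above untreated WT (1.46, SE 0.104, edgeR adjusted p = 2.58e-06). Neither gene overlapped between the groups, and their calls remained in every alternative run.

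MUC4 was at 2.98, 3.43 and 3.76 CPM in KO2, 1.91-fold below untreated WT (log2 fold change -0.93, SE 0.196, edgeR adjusted p = 0.0147), so it was lower where MUC1 and MUC20 were higher. SPDEF was at 12.4, 15.9 and 14.2 CPM (0.93, SE 0.231, edgeR adjusted p = 0.0365) and AGR2 at 10.5, 11.7 and 11.8 CPM (0.85, SE 0.212, edgeR adjusted p = 0.0392). FCGBP had 21, 23 and 16 counts (1.303, SE 0.341, edgeR adjusted p = 0.0457). For these 4 genes the KO2 libraries did not overlap untreated WT, and their calls were lost in most fits without 1 library. The log2 fold changes in those fits were 0.845 to 1.04 for SPDEF and 0.813 to 0.962 for AGR2. They were -0.989 to -0.828 for MUC4 and 1.18 to 1.54 for FCGBP. All genes called in KO2 went from 738 to between 321 and 426 in the same fits. SPDEF and AGR2 were no longer called when any 1 of the 6 libraries was left out (edgeR adjusted p up to 0.157 and 0.135). MUC4 and FCGBP were no longer called when any 1 of the 5 libraries other than KO2 replicate 3 was left out (edgeR adjusted p up to 0.0855 and 0.171).

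MUC5B was not called in KO2. It was at 26.4, 32.2 and 27.7 CPM there, within the range of untreated WT, and its log2 fold change was 0.13 (SE 0.232, edgeR adjusted p = 0.826). MUC16 was at 4.598, 3.79 and 4.23 CPM, above all untreated WT libraries, and was not called (0.38, SE 0.217, edgeR adjusted p = 0.411). MUC5AC had 1, 4 and 3 counts in KO2 and MUC13 had 0, 1 and 0. Neither could be told from untreated WT at this depth. Of the neighbours, AP2A2 (edgeR adjusted p = 0.47), TOLLIP (0.677), MUC20-OT1 (0.975), TNK2 (0.756) and TFRC (0.327) were not called in KO2. MUC20P1 was called higher, at a mean of 1.83 CPM against 0.576 in untreated WT (log2 fold change 1.65, edgeR adjusted p = 0.00495).

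The name goblet cell genes was set against marker genes. Of 6 airway goblet markers, TFF3 had 0 counts in all 12 libraries, CLCA1 was at or near 0, FOXA3 had at most 3 counts in any library and MUC5AC at most 19, so nearly all of the summed level came from SPDEF and AGR2, which are among the 10 genes. That sum lay between 13.6 and 14.2 CPM without drug, between 7.94 and 15.2 at 7 days, between 126 and 183 at 28 days and between 22.9 and 27.8 in KO2. Of 6 intestinal goblet markers, ATOH1 and TFF3 were at 0 throughout, and ZG16 (1.55 to 4.24 CPM at 7 days) and FCGBP were over the floor. SPINK4 was over the floor only at 7 days and had 0 counts in the other groups. The sum of the 6 markers was 0.269 to 0.346 CPM in untreated WT, 2.33 to 5.09 at 7 days, 1.53 to 1.68 at 28 days and 0.553 to 0.874 in KO2. The goblet markers were thus present in part, and the genes are called here by their symbols. Club cell markers summed to at most 0.304 CPM. Ciliated cell markers summed to 4.85 to 6.15 CPM without drug, 8.88 to 11.02 at 7 days, 7.86 to 8.74 at 28 days and 5.51 to 6.22 in KO2. DNAH5 gave most of these sums. In the same order FOXJ1 averaged 0.117, 0.127, 1.62 and 0.485 CPM, highest at 28 days. TPPP3 averaged 0.0642, 0.858, 0.481 and 0.542 CPM, highest at 7 days.

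General epithelial markers summed to between 8862 and 9330 CPM in wild-type cells without drug, between 4465 and 5022 at 7 days, between 7481 and 9812 at 28 days and between 9542 and 10260 in KO2, so the sum was lower at 7 days. KRT18, from 2930 to 1184 CPM (log2 fold change -1.31, edgeR adjusted p = 1.78e-07), and KRT8, from 4015 to 1869 CPM (-1.10, edgeR adjusted p = 3.07e-06), made up most of it, while CDH1 did not pass the test at 7 days (0.06, edgeR adjusted p = 0.766). Alveolar type 2 markers summed to 6.06 to 7.32, 10.3 to 12.4, 19.98 to 24.1 and 12.8 to 13.9 CPM. Among them the surfactant gene SFTPB was at 1.51 ± 0.505, 0.0699 ± 0.0664, 14.1 ± 2.79 and 6.38 ± 1.04 CPM, low at 7 days and high at 28 days, and SFTPC was at or near 0. Other markers of this list, ABCA3, NAPSA and SFTPD, were instead highest at 7 days. In untreated WT, DTC and DTEC ABCA3 averaged 5.15, 9.16 and 7.04 CPM, NAPSA 0.127, 1.62 and 0.541, and SFTPD 0.0738, 0.525 and 0.217. Alveolar type 1 markers summed to 225 to 239, 192 to 257, 163 to 208 and 183.7 to 184.0 CPM in the same order. PDPN was at or near 0 and CAV1 gave most of the sum. HOPX of this list instead averaged 0.222, 1.98, 4.49 and 0.988 CPM, and AGER 2.46, 1.90, 2.87 and 2.53. Basal markers summed to 148 to 156, 63.0 to 94.5, 29.4 to 40.4 and 196 to 205 CPM, mostly from KRT5. TP63 (log2 fold change 2.94, edgeR adjusted p = 5.18e-07) and KRT14 (1.02, edgeR adjusted p = 0.0431) were instead higher at 7 days than in untreated WT. DLK2 was lower then (-0.71, edgeR adjusted p = 0.0139). Fibroblast markers summed to 54.9 to 57.5 CPM in DTC and 7.79 to 14.8 elsewhere, mostly from COL1A1. LUM was at 0.203, 0.530 and 0.557 CPM in the 3 DTC libraries and at 0 in the other 9, and DCN, COL1A2 and COL3A1 were at or near 0. Immune markers, with MS4A1 at 0 and CD68 giving most of the sum, reached 26.6 to 33.5, 37.3 to 54.0, 34.2 to 41.0 and 25.9 to 28.97 CPM. Endothelial markers, with CLDN5 at 0, summed to 58.5 to 61.4, 41.9 to 49.5, 122 to 142 and 75.7 to 77.2 CPM. Of these PECAM1, an adhesion protein, was at 32.0 ± 3.09 CPM in untreated WT, 8.77 ± 1.08 at 7 days and 92.1 ± 2.74 at 28 days (log2 fold change -1.87 at 7 days, edgeR adjusted p = 4.43e-09, and 3.39 from 7 to 28 days, edgeR adjusted p = 8.61e-11), low at 7 days and high at 28 days as MUC5B was. VWF of the same list was instead highest at 7 days, at means of 0.122, 1.57 and 0.405 CPM in these groups. CDH5, at 27.7, 35.0 and 36.7 CPM, was called in no erlotinib comparison. The part of these markers in the results was not tested.

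The pathway around the mucins was read from 5 lists of 99 genes. Of 16 other mucins and mucin-like proteins 4 had enough counts, and all 4 were called higher than untreated WT at both times, against 34.0% of all tested genes at 7 days and 26.0% at 28 days. MUC15 among them had to differ, because it passed the filter only through the groups where it is high. MCAM, an adhesion protein listed with the sialomucins, was at 15.7 CPM in untreated WT, 121 at 7 days and had a log2 fold change of 2.95 there (edgeR adjusted p = 2.18e-08) and 1.46 at 28 days (edgeR adjusted p = 3.02e-05). OVGP1, a secreted oviduct mucin, had 2.63 (edgeR adjusted p = 2.49e-07) and 1.19 (edgeR adjusted p = 0.000906). MUC15, a membrane mucin, had 0 counts in untreated WT and was at 0.412 ± 0.0527 CPM at 7 days and 0.257 ± 0.0970 at 28 days. In KO2 the log2 fold change was -0.74 for MCAM (edgeR adjusted p = 0.0558), 0.20 for OVGP1 (edgeR adjusted p = 0.753) and 0.13 for CD164, a sialomucin (edgeR adjusted p = 0.528).

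Of 18 transcription factors and stress sensors of secretory cells, 14 were tested. NKX2-1, among those called higher at 7 days, passed the filter through DTC, at 0.366 CPM against 0.0312 in untreated WT. SOX2, among those called higher at 28 days, passed it through DTEC and KO2. The counts of this list are therefore a description. At 7 days 6 were called higher and 7 lower, with a median log2 fold change of -0.31, where 34.0% and 33.3% of all genes were called. With total counts alone 2 were called lower, and with upper quartile scaling 3. GFI1, a repressor in secretory precursors, rose (2.17, edgeR adjusted p = 4.00e-06), as did the ETS factor ELF3 (0.73, edgeR adjusted p = 1.96e-06), while FOXA1, a pioneer factor of endoderm, fell from 67.5 to 24.7 CPM (-1.45, edgeR adjusted p = 2.37e-08) and KLF4 fell (-1.20, edgeR adjusted p = 4.78e-07). At 28 days 8 were called higher and 3 lower, against 26.0% and 26.3% of all genes, with a median of 0.50. Among those with a mean of at least 1 CPM the most raised were CREB3L4, a membrane-bound factor of the secretory pathway (1.72, edgeR adjusted p = 7.16e-08), and ELF3 (1.33, edgeR adjusted p = 2.74e-08), and below that level SOX2 was called higher (3.75, edgeR adjusted p = 0.0174) at 0, 0.535 and 1.24 CPM. KLF4 (-0.65, edgeR adjusted p = 0.000302) and the Notch target HES1 (-0.48, edgeR adjusted p = 0.000971) were lower. From 7 to 28 days 9 were called higher and 2 lower, against 28.8% and 26.6% of all genes. Among the higher were XBP1, the factor of the unfolded protein response, at 72.2 and 192 CPM (1.41, edgeR adjusted p = 8.88e-08), and FOXA1 (1.29, edgeR adjusted p = 1.94e-07). In KO2, where 2.76% of all genes were called higher and 1.55% lower, ELF5 (0.78, edgeR adjusted p = 0.0058) and ELF3 (0.45, edgeR adjusted p = 0.00587) were higher and CREB3L1 lower (-0.71, edgeR adjusted p = 0.0475), and 11 were not called. The CREB3L1 call was lost in 10 of 12 alternatives (adjusted p up to 0.199), among them the removal of any 1 of the 6 libraries.

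Of 23 proteins secreted with mucins or acting on mucus, 14 were tested. At 7 days 6 were called higher and 6 lower, against 34.0% and 33.3% of all genes. BPIFB1, a secreted protein of the airway lining, was at 1.55 CPM in untreated WT and 19.7 at 7 days (3.67, edgeR adjusted p = 1.15e-09), and ZG16, a lectin of intestinal granules with 0, 0 and 4 counts in untreated WT, was at 3.06 ± 1.37 CPM. ZG16 passed the filter through DTC, where it is high, so the counts of this list are a description. The chloride channel gene ANO1 fell from 665 to 77.6 CPM (-3.10, edgeR adjusted p = 2.72e-10), and the trefoil factor TFF1 fell from 3.11 to 0.936 CPM (-1.72, edgeR adjusted p = 3.51e-05). At 28 days 5 were called higher and 1 lower, against 26.0% and 26.3% of all genes, and 9 were called higher with total counts alone or upper quartile scaling and 10 without the filter. BPIFB1 was at 21.9 CPM (3.83, edgeR adjusted p = 3.60e-09), CEACAM5, an adhesion protein of epithelial tumours, rose from 6.57 to 67.7 CPM (3.36, edgeR adjusted p = 1.31e-08), and TFF1 was at 0.161 CPM (-4.20, edgeR adjusted p = 1.58e-07). From 7 to 28 days 5 were called higher, among them CEACAM5 (4.43) and the chloride channel regulator CLCA2 (3.38), and 4 lower, with ZG16 at -3.79, against 28.8% and 26.6% of all genes. In KO2 BPIFB1 was at 16.3 CPM (3.40, edgeR adjusted p = 2.43e-07). It was 1 of 2 genes of the list called higher, against 2.76% of all genes, and 0 were called lower, against 1.55%. Leaving out any 1 library of KO2 or untreated WT gave 1 gene called higher.

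Of 15 genes of granule docking and release, 13 were tested. SYTL2, a RAB27 effector, was at 10.9 CPM in untreated WT and 74.1 at 7 days (2.76, edgeR adjusted p = 3.75e-10), and its log2 fold change at 28 days was 2.75 (edgeR adjusted p = 1.81e-09). At 7 days 7 of the 13 were called higher, among them SYTL4 (2.11), against 34.0% of all genes. At 28 days 7 were higher, among them the granule GTPase RAB3D, from 20.3 to 64.8 CPM (1.67, edgeR adjusted p = 1.36e-07), and 2 lower, the priming factor UNC13D (-0.55, edgeR adjusted p = 0.0162) and the syntaxin STX3 (-0.40, edgeR adjusted p = 0.00865), against 26.0% and 26.3% of all genes. Both lower calls were lost with total counts alone (edgeR adjusted p = 0.0818 and 0.0947), UNC13D also with upper quartile scaling. UNC13D was further lost when DTEC replicate 1 or 2, or untreated WT replicate 2 or 3, was left out (edgeR adjusted p up to 0.108), and STX3 when untreated WT replicate 1 was (edgeR adjusted p = 0.055). Leaving out DTEC replicate 3 gave 4 genes called higher. From 7 to 28 days 4 were called higher and 6 lower, with RAB3D at 1.90 and SYTL4 at -2.12, against 28.8% and 26.6% of all genes, and 2 were higher with total counts alone or upper quartile scaling. In KO2 SYTL2 (0.75, edgeR adjusted p = 0.00322) and RAB3D (0.61, edgeR adjusted p = 0.0121) were higher and UNC13D lower (-0.81, edgeR adjusted p = 0.0168), where 2.76% of all genes were called higher and 1.55% lower. RAB3D was not called without untreated WT replicate 3 or KO2 replicate 1 (edgeR adjusted p up to 0.0763), and UNC13D not without untreated WT replicate 2 or 3 or KO2 replicate 1 or 2 (up to 0.0996).

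Of 27 enzymes that build mucin-type sugars, 23 were tested. At 7 days 10 were called higher and 7 lower, against 34.0% and 33.3% of all genes, with a median log2 fold change of 0.20. GCNT4, which branches O-glycans, rose from 3.33 to 20.1 CPM (2.59, edgeR adjusted p = 1.21e-06), and GALNT10, which starts them, fell from 326 to 109 CPM (-1.59, edgeR adjusted p = 4.67e-07). At 28 days 10 were called higher and 2 lower, against 26.0% and 26.3% of all genes. CHST4, a sulfotransferase, rose from 4.12 to 19.5 CPM (2.24, edgeR adjusted p = 2.84e-07), GALNT14 was lower (-0.65, edgeR adjusted p = 2.18e-05) and so was ST3GAL4 (-0.30, edgeR adjusted p = 0.0326), a call lost in 8 of 12 alternatives (adjusted p up to 0.324), among them both other scalings and the removal of any 1 untreated WT library or of DTEC replicate 1 or 2. From 7 to 28 days 11 were higher, with GALNT10 at 1.45, and 6 lower, with GCNT4 at -1.59, against 28.8% and 26.6% of all genes, and 10 were lower with total counts alone or upper quartile scaling. In KO2, where 2.76% of all genes were called higher and 1.55% lower, 22 of 23 were not called. GALNT1 was lower (-0.48, edgeR adjusted p = 0.0362), a call lost in 7 of 12 alternatives (adjusted p up to 0.200), among them the removal of any 1 of the 6 libraries.

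**Figure D4:**
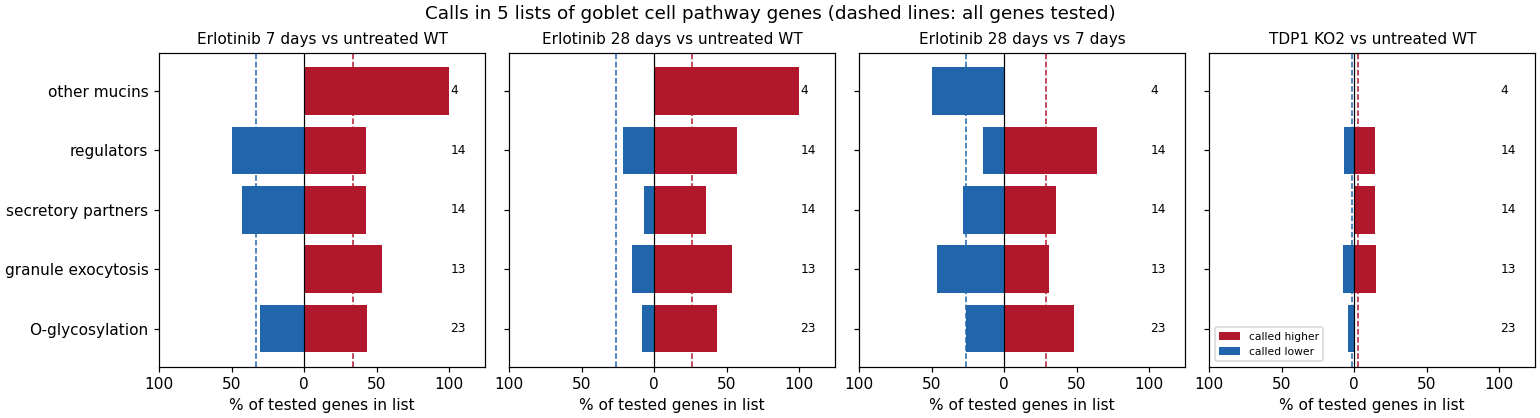
Share of the tested genes of 5 pathway lists that was called higher (to the right) or lower (to the left) in each comparison; numbers at the right give the genes tested, and dashed lines the shares over all 17115 tested genes. All 4 tested other mucins were called higher at 7 and 28 days, the regulators were divided between higher and lower at 7 days, and few genes were called in KO2.

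The genes most like MUC5B over the 12 libraries, by Pearson's r of log2 CPM among 9802 genes with a mean of at least 10 CPM, were SLC1A6 (r = 0.993), UBAC2 (0.990), RPL3 (0.989), GNG4 (0.988) and GPD1L (0.988). SLC1A6, a glutamate transporter, averaged 26.0 CPM in untreated WT, 4.49 at 7 days, 79.6 at 28 days and 30.9 in KO2. RPL3, a ribosomal protein, averaged 1770, 879, 2270 and 1726 CPM, the same order over a far smaller range. The genes most like AGR2 were UGT1A6 (0.993), CAMK2N1 (0.992), IDH1 (0.991), GRAMD2A (0.989) and ALDOC (0.985), and UGT1A6 shares exons with its neighbouring isoform genes. IDH1, the cytosolic isocitrate dehydrogenase, averaged 166, 202, 665 and 215 CPM. The libraries of a group share their treatment, so these values describe likeness of the group means.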

How the data were processed

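The authors deposited expected counts per gene, without scaling to depth, for 12 libraries, and 71.75% of the values of tested genes were whole. Per the submitters' processing notes, RSEM 1.3.1, Bowtie2 2.5.2, DESeq2 1.40.2 and the build GRCh38 were used, with no role given to each; the annotation is not given in the sources used here. Per the labels, libraries were made with the TruSeq Stranded mRNA kit and read as 101 bp pairs. The table had 0 columns of other samples, and 62700 of its 62754 genes had a symbol.

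Rounded values were fitted by edgeR 4.0.16 under R 4.3.3: genes kept by filterByExpr (17115, holding at least 99.891% of each library's counts), TMM scaling, all 12 libraries in one robust quasi-likelihood fit with 1 mean per group, and p-values adjusted by the Benjamini-Hochberg method over all tested genes. The threshold of a call was 0.05. SE is that of the log2 fold change and ± is SD over 3 libraries. Totals of 25572691 to 38373679 counts set the precision; floors of 3 counts cover counting error only. Positions and exon bases are those of GENCODE 29, promoter windows those of RefSeq GRCh38.p14.

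The genes and lists were chosen with earlier results of these data known. Named were the 10 genes; TDP1; per list and comparison up to 2 rising and 2 falling called genes with the largest change and a mean of at least 1 CPM; the genes around MUC5B and MUC20; and the 5 genes most like MUC5B and AGR2 at a mean of at least 10 CPM. MUC6, MUC15, SOX2, SFTPB, PECAM1 and the other marker genes given by name were added after their values were seen where the rule did not hold them. Likeness to MUC5AC was not computed because of its low counts. Not every gene the rule took is described. Alternatives were total-count and upper-quartile scaling, no filter, only the 6 compared libraries, a replicate block, DESeq2 1.42.0 and leaving out each library. The sum of MUC20 and MUC20P1 was added after seeing the data.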

Additional observations from a re-analysis of the deposited data

Results flagged for a closer look

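The change after 28 days differed from the change after 7 days, both relative to the same untreated WT cultures, for 7 genes when tested directly in the edgeR fit as 28 days minus 7 days, a comparison in which 28.8% of all tested genes were called higher and 26.6% lower. The difference was 3.58 for AGR2, 3.42 for SPDEF, 0.85 for FCGBP, 0.82 for MUC20, 0.66 for MUC16, 0.46 for MUC1 and -2.03 for MUC4 on the log2 scale. The differences of FCGBP and MUC1 were not called in some of the alternatives given below. For MUC5B the difference was 9.71 and was not tested, because the gene was chosen for it: all 3 cultures were lower than untreated WT at 7 days and all 3 higher at 28 days.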

How the results depend on the processing

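Of 352 alternative values of the tested log2 fold changes of the 8 fitted genes, 316 kept their direction and their side of the threshold, 35 kept the direction and were no longer called, and 1 reversed: MUC5B in KO2 was -0.056 without untreated WT replicate 1, against 0.13, and at most 0.34 over the fits without 1 library. The 36 alternative values of MUC5B under erlotinib, which was not tested, kept their direction. The genes called among those tested remained 7 at 28 days in all alternatives, were 7 to 8 at 7 days and 5 to 8 between 7 and 28 days; the 8 came without the filter, with MUC13 called at 7 days, and MUC5AC and MUC13 called and FCGBP lost between 7 and 28 days. In KO2 they were 6, and 2 to 4 when 1 library was left out. The number of all genes called in KO2, 738, was 1147 without the filter, 2656 with only the 6 compared libraries and 321 to 426 when 1 library was left out. FCGBP was not called in KO2 without the filter (edgeR adjusted p = 0.127), with the replicate block (edgeR adjusted p = 0.0651) and with DESeq2 (adjusted p = 0.0595), and between 7 and 28 days not with total counts (0.0694), upper quartile (0.0672), no filter (0.115) or DESeq2 (0.0566). Total counts alone moved the median log2 fold change of all genes by 0.36 at 7 days, 0.17 at 28 days, -0.19 between them and 0.07 in KO2, and the percentage of called genes lying above untreated WT, or above 7 days, went from 50.5% to 68.4%, 49.7% to 63.8%, 51.9% to 37.4% and 64.1% to 78.8%; upper quartile gave 65.0%, 59.1%, 38.7% and 69.3%. No gene of the 8 changed direction with scaling. Of the list genes given by name, UNC13D, ST3GAL4 and STX3 at 28 days and CREB3L1 and GALNT1 in KO2 were not called with total counts. The regulators called lower at 7 days were 2 with total counts and 3 with upper quartile, against 7; secretory partners called higher at 28 days were 9 with either scaling and 10 without the filter, against 5; sugar enzymes called lower between 7 and 28 days were 10 with either, against 6; granule genes called higher at 28 days were 4 without DTEC replicate 3, against 7, and between 7 and 28 days 2 with either scaling, against 4; granule genes called lower at 7 days were 2 without DTC replicate 1, against 0. In KO2 at most 4 genes of any list were called in one direction in any alternative. Libraries of the same replicate number were weakly alike. Of 18 same-number pairs 4 had a correlation of deviations over 0.1 (range -0.030 to 0.179), against 2 of 36 other pairs (range -0.187 to 0.118). The main fit did not pair cultures by number, and whether the numbers mark a shared origin was not tested. The replicate block changed no call of the 8 genes but that of FCGBP in KO2. Low counts limit MUC5AC, MUC13, FCGBP and the 7-day value of MUC5B. The causes of these shifts were not tested.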

Other observations

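MUC5B and SPDEF had their lowest value in replicate 1 of each of the 4 groups, and no other gene of the 10 had its lowest value in the same replicate number throughout. MUC5B was at 18.2, 0.135, 148 and 26.4 CPM and SPDEF at 6.36, 0.913, 13.4 and 12.4 CPM in the replicate 1 libraries of untreated WT, DTC, DTEC and KO2. This was noticed after the values were seen and was not tested.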
